A study of Mus musculus with 14 samples.

Results

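Collagens VI, XXIII and XXVI were read through every array probe that carries the symbol Col6a1, Col6a2, Col6a3, Col23a1 or Col26a1. Of these 5 genes, 4 had a probe, with 10 probes in all among the 45281 of the array, and no probe carried the symbol Col6a3, so that chain was not analysed here. The genes were chosen by their measured signal in CM-CKO against Control arrays, where Col6a1, Col23a1 and Col26a1 were already known to be low. Values of these 5 genes in that comparison are therefore given below as a description, and no test of them there is read as a result. Total RNA of embryonic mouse heads of 5 to 7 somites (E8.5), on the mixed background C57Bl/6 x 129 x BALB/c, was hybridised to 14 Illumina bead arrays.

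All 4 genotypes carry 1 floxed Twist1 allele, so no group is free of genetic modification. CM-CKO heads (n = 4) combine that allele with a deleted Twist1 allele and with Cre at 1 of the Mesp1 alleles (Twist1flox/del; Mesp1Cre/+). CM-Het heads (n = 3) have Mesp1-Cre with a wild-type second Twist1 allele (Twist1flox/+; Mesp1Cre/+). Het heads (n = 3) have the deleted allele and no Cre (Twist1flox/del; Mesp1+/+), and Control heads (n = 4) have the wild-type second allele and no Cre (Twist1flox/+; Mesp1+/+). Cre made from the Mesp1 locus acts in cells descended from early mesoderm, so neural tube, ectoderm and endoderm in the same CM-CKO head keep the floxed copy, and every head with Cre also has 1 Mesp1 allele fewer. The labels leave unsaid whether a replicate is an embryo, a litter or a pool, and the p-values therefore reflect the spread among these arrays, which may be technical.

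Collagen VI is a microfibril of the interstitial matrix, built from a trimer of chains that the genes Col6a1, Col6a2 and Col6a3 encode, and it assembles into beaded filaments around cells. It binds cell surface integrins and the proteoglycan NG2, and mutations of its chains in people cause muscle disease. Collagen XXIII is a transmembrane collagen that furin can shed from the cell surface. Collagen XXVI is a secreted protein with short collagen stretches and an EMI domain, first described in testis and ovary, and older annotations call its gene Emid2 or Emu2. Twist1 encodes a basic helix-loop-helix transcription factor of head mesenchyme that binds E-boxes, sites with the letters CANNTG.

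Col6a1 (Entrez 12833) and Col6a2 (Entrez 12834) lie on chromosome 10 with 2 annotated genes between them, 0 of which code for a protein. Col6a3 (Entrez 12835) is on chromosome 1, Col23a1 (Entrez 237759) on chromosome 11 and Col26a1 (Entrez 140709) on chromosome 5. Promoter windows of 300 bases, from 250 before to 50 after an annotated start, were given by RefSeq (GRCm38.p6) for 4 of the 5 genes. Col6a1 (chr10:76725995-76726294, minus strand) and Col23a1 (chr11:51289670-51289969, plus strand) are printed because both genes read low in CM-CKO heads with 2 probes each. Capitals mark the E-box letters CANNTG, which read as CANNTG on both strands:
Col6a1: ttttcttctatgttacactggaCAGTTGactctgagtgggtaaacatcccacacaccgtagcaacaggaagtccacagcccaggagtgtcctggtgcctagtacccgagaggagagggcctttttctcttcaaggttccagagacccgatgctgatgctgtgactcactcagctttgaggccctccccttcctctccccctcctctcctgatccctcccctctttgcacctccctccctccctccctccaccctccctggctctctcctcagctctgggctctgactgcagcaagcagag
Col23a1: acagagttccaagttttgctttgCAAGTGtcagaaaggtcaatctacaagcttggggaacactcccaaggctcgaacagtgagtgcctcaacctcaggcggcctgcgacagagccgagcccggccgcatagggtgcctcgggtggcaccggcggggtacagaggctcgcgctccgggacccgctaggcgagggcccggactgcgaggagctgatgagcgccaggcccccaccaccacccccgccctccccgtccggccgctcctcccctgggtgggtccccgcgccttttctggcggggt

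Each of these windows held 1 match, CAGTTG in Col6a1 with its first base at position -228 and CAAGTG in Col23a1 at position -227, counted from the start. The 2 windows of Col6a2 and the window of Col6a3 held 0 matches. Across 32851 promoter windows of the same table, 72.3% held CANNTG, 3.91% CATATG, 17.2% CATCTG on either strand and 16.3% CAGCTG, and the windows of these collagen genes held 0 of the last 3 hexamers. A match is a description of letters and not a bound site, and a window without one says only that these letters are not in it.

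Between 18242 and 19455 probes, or 40.3% to 43.0%, stood above background on a single array (detection p under 0.05), and the median signal intensity ran from 92.3 to 116. Twist1, the targeted gene, had a mean log2 signal of 7.75 ± 0.14 in CM-CKO heads (SD, n = 4), 8.65 ± 0.14 in CM-Het heads (n = 3), 8.60 ± 0.12 in Het heads (n = 3) and 9.32 ± 0.20 in Control heads (n = 4), in the direction the genotypes give. The array descriptions place CM-CKO 1 and 2 with all 4 Control arrays on beadchip 2, CM-CKO 3 and 4 on beadchip 3, and all CM-Het and Het arrays on beadchip 1. A difference between CM-Het or Het heads and Control heads therefore cannot be told apart from a difference between beadchips 1 and 2. CM-CKO 3, CM-CKO 4 and Het 3 had 0 of 4 Xist probes above background and the other 11 arrays had 4 of 4, so the CM-CKO and Het arrays are mixed in Xist signal. Within CM-CKO the arrays lacking Xist are those of beadchip 3. Leaving out arrays without Xist and taking CM-CKO from beadchip 2 only therefore keep the same CM-CKO arrays and are not separate checks of them. Signals are background-corrected, quantile-normalised log2 values, and a gene counts as tested when a probe was above background on at least 3 arrays, which 11394 genes and 7 of the 10 collagen probes met.

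Col6a1, which encodes a chain of collagen VI, was highest in Control heads. Its mean was lower in Het heads and lowest in both groups with Cre. The CM-CKO and Het arrays overlapped, and CM-Het and Het were separated only by 5.50 against 5.51. Its brightest probe (ILMN_2768087, above background on all 14 arrays) read 4.98, 5.78, 5.33 and 5.15 in CM-CKO heads, 5.22, 5.33 and 5.50 in CM-Het heads, 5.51, 5.88 and 5.84 in Het heads, and 6.73, 6.34, 6.46 and 6.43 in Control heads. Every array of the other genotypes lay below every Control array, while the CM-CKO and CM-Het arrays were mixed with each other. Over all genes, 2.88% had the CM-CKO arrays all below the Control arrays, 7.57% the CM-Het arrays and 5.7% the Het arrays. On the unprocessed scale the same probe stood at intensities of 99.8 to 135.7 in CM-CKO heads, 124.5 to 139.6 in CM-Het heads, 144.7 to 150.5 in Het heads and 136.3 to 192.8 in Control heads, not far above the array medians. On that scale CM-CKO overlapped only CM-Het, while the Control range spanned those of Het and part of CM-Het. In these bulk heads, fewer cells of a type and less RNA per cell cannot be told apart.

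**Figure D1:**
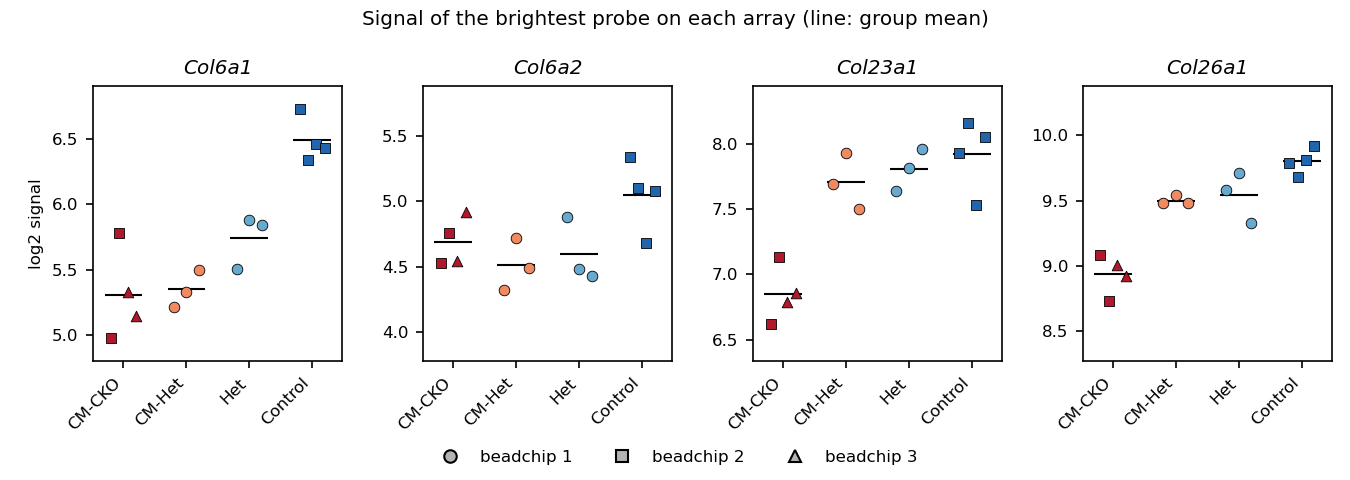
Log2 signal of the brightest probe of Col6a1, Col6a2, Col23a1 and Col26a1 on each of the 14 arrays, by genotype (x axis); each point is 1 array, its shape gives the beadchip and the line is the genotype mean. Col6a1 sits below Control in CM-CKO, CM-Het and Het heads, whereas Col23a1 and Col26a1 sit lowest in CM-CKO heads alone.

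The Col6a1 means were 5.31 ± 0.34 in CM-CKO heads (SD, n = 4), 5.35 ± 0.14 in CM-Het heads (n = 3), 5.74 ± 0.20 in Het heads (n = 3) and 6.49 ± 0.17 in Control heads (n = 4). In that order the step from CM-CKO to CM-Het, of 0.04, lay within the spread of the arrays, and neighbours further up did not overlap, with steps of 0.40 and 0.75. CM-Het heads differed from Control heads by -1.14 (SE 0.17, 95% interval -1.50 to -0.78), a 2.21-fold lower signal with limma adjusted p = 0.0223. Of the 4 tested collagen genes Col6a1 was the 1 called in this comparison, in which 0.412% of all genes were called and 0.228% were called lower. This comparison shares its Control arrays with the one behind the choice of genes, and its groups lie on different beadchips. The call was lost without CM-Het 1 (adjusted p = 0.129), CM-Het 2 (0.0731), Control 1 (0.0558) or Control 3 (0.0538), and the difference shrank to -0.48 (adjusted p = 0.0147) in the deposited processed table, which has no background subtraction, and to -0.73 (0.0183) with a larger offset of 50.

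Het heads differed from Control heads in Col6a1 by -0.75 (SE 0.17, 95% interval -1.11 to -0.38), which did not pass the limma test (adjusted p = 0.12) although the arrays did not overlap. No gene of the array passed that test in this comparison (0% called), while 12.4% of genes and 3 of the 4 collagen genes had an unadjusted p under 0.05, and 5.7% of genes had Het arrays all below the Control arrays. With the beadchip as a random block (consensus correlation -0.0585) the Col6a1 difference was called at the same size of -0.75 (adjusted p = 0.0396), as were 83 genes in all (0.728%, against 0 without the block). Het and Control arrays share no beadchip, so the block cannot remove a beadchip difference here. The size stayed the same and the SE was 0.15 with the block against 0.17 without it.

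CM-CKO and CM-Het heads were not separated in Col6a1. The difference was -0.04 (SE 0.17, limma adjusted p = 0.956), and its 95% interval of -0.40 to 0.32 covers changes in both directions. CM-CKO against Het gave -0.43 (SE 0.17, adjusted p = 0.502) with overlapping arrays. CM-Het against Het gave -0.40 (SE 0.18, 95% interval -0.78 to -0.01, limma adjusted p = 0.999). Both groups lie on beadchip 1 and share no array with CM-CKO against Control, the comparison behind the choice of genes. Earlier results of these data were nevertheless known when the genes were chosen. The arrays of that last pair did not overlap, as was the case for 5.39% of all genes in the same direction, and the unadjusted p was 0.0455 for Col6a1 while 0% of genes passed the adjusted test and 3.96% passed unadjusted.

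CM-CKO heads lay below Control heads in Col6a1 by -1.18 (SE 0.16), a 2.26-fold difference, and by -1.11 when only beadchip 2 supplied CM-CKO arrays and -1.25 when only beadchip 3 did. This was the comparison behind the choice of genes. In it 3 of the 4 tested genes passed the threshold, against 0.702% of all genes (0.518% lower), and the same 3 had CM-CKO arrays all below the Control arrays, against 2.88% of all genes. Nothing is read from those counts.

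The further Col6a1 probes divided into one that moved with the first and one without signal. Probe ILMN_1259388, above background on 12 arrays, read 4.60, 4.91, 4.97 and 4.48 in CM-CKO heads, 4.72, 5.09 and 4.83 in CM-Het heads, 5.00, 5.43 and 5.16 in Het heads, and 5.84, 5.66, 5.86 and 5.61 in Control heads. Again all 4 Control arrays stood above the other 10 arrays, while the CM-Het arrays overlapped both the CM-CKO and the Het arrays. Its means were 4.74 ± 0.24 in CM-CKO heads, 4.88 ± 0.19 in CM-Het heads, 5.20 ± 0.22 in Het heads and 5.74 ± 0.13 in Control heads. Its CM-Het minus Control difference of -0.86 (SE 0.18) passed the limma test over all detected probes (adjusted p = 0.0265, 0.434% of probes called), and its CM-CKO minus CM-Het difference of -0.14 did not (adjusted p = 0.796). Over the 14 arrays the 2 probes correlated at r = 0.94, and at 0.63 after the genotype means were removed, values that share the RNA and the hybridisation of each array. The third probe, ILMN_2589422, was above background on 0 arrays, stayed between 4.22 and 4.58, and says nothing of the gene.

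Col6a2 encodes a second chain of the same trimer and was close to background. Its brighter probe (ILMN_1216661) passed the detection threshold on 2 of 4 arrays of CM-CKO, 0 of 3 of CM-Het, 1 of 3 of Het and 3 of 4 of Control. It read 4.53, 4.76, 4.54 and 4.92 in CM-CKO heads, 4.32, 4.72 and 4.49 in CM-Het heads, 4.88, 4.48 and 4.43 in Het heads, and 5.34, 5.10, 4.68 and 5.08 in Control heads. All 4 genotypes overlapped. The means were 4.69 ± 0.19, 4.51 ± 0.20, 4.59 ± 0.25 and 5.05 ± 0.27 in the same order of genotypes (SD, n as above).

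No Col6a2 difference passed the limma test. The largest was CM-Het minus Control at -0.54 (SE 0.17, 95% interval -0.89 to -0.18, adjusted p = 0.149). CM-Het was below background on every array, so the size of this difference is not firm. With CM-Het set to the lowest signal above background on its arrays, the Control mean was 1.25-fold brighter. That value leaves out the spread of the arrays. Het minus Control was -0.46 (SE 0.17, adjusted p = 0.274) and CM-CKO minus Control -0.36 (SE 0.16). CM-CKO heads read 0.18 above CM-Het heads (SE 0.17, 95% interval -0.18 to 0.53, adjusted p = 0.75) and 0.09 above Het heads (SE 0.17, adjusted p = 0.951), and CM-Het minus Het was -0.08 (adjusted p = 0.999). The other Col6a2 probe (ILMN_1258759, annotated to a cDNA clone) was above background on 0 arrays, between 4.26 and 4.67.

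Col23a1, the gene of the transmembrane collagen XXIII, was low in CM-CKO heads against each of the other 3 genotypes, which lay close together. Its brighter probe (ILMN_2650447, above background on 14 arrays) read 6.62, 7.13, 6.79 and 6.86 in CM-CKO heads, 7.69, 7.93 and 7.50 in CM-Het heads, 7.64, 7.81 and 7.96 in Het heads, and 7.93, 8.16, 7.53 and 8.05 in Control heads. The highest CM-CKO array lay below the lowest array of every other genotype, and the other 3 genotypes overlapped one another. Unprocessed intensities ran from 149.2 to 220.9 in CM-CKO heads, 289.9 to 338.6 in CM-Het heads, 320.5 to 337.6 in Het heads and 264.5 to 317.5 in Control heads, also without overlap between CM-CKO and the rest. The means were 6.85 ± 0.21 in CM-CKO heads, 7.70 ± 0.21 in CM-Het heads, 7.80 ± 0.16 in Het heads and 7.92 ± 0.27 in Control heads.

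Col23a1 fell in CM-CKO heads against Het heads by 0.95 on the log2 scale (SE 0.15, 95% interval of the difference -1.28 to -0.63), 1.94-fold, with limma adjusted p = 0.00682. Against CM-Het heads it fell by 0.86 (SE 0.15, interval -1.18 to -0.53), 1.81-fold, with adjusted p = 0.0229. Against Het 2 of the 4 tested collagen genes were called, Col23a1 and Col26a1, where 0.219% of all genes were called and 0.176% called lower. Against CM-Het the same 2 were called, where 0.211% of all genes were called and 0.14% called lower. These 2 genes were also the ones whose CM-CKO arrays all lay below the Het arrays (4.11% of all genes) and below the CM-Het arrays (5.09% of all genes). Both comparisons share the CM-CKO arrays with the one behind the choice of genes, so they are not independent of it.

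The 2 calls of Col23a1 depended on single arrays. Against Het the call was lost without Het 2 (-0.95, adjusted p = 0.0639) or Het 3 (-0.87, 0.0591). Against CM-Het it was lost without CM-Het 1 (adjusted p = 0.111), CM-Het 2 (0.15), CM-CKO 1 (0.0923), CM-CKO 3 (0.0742) or CM-CKO 4 (0.0559), while the difference kept between -0.96 and -0.75. In the deposited processed table the differences shrank to -0.62 against Het (adjusted p = 0.0123) and -0.55 against CM-Het (0.0432). With the 3 arrays lacking Xist removed they were -0.85 (adjusted p = 0.271) and -0.83 (0.175). With CM-CKO arrays from beadchip 2 only, the adjusted p was 0.118 against Het and 0.169 against CM-Het, and from beadchip 3 only it was 0.0408 and 0.125.

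Heads with a single change differed little from Control in Col23a1. CM-Het minus Control was -0.21 (SE 0.15, 95% interval -0.54 to 0.11, adjusted p = 0.525), Het minus Control was -0.11 (SE 0.15, interval -0.44 to 0.21, adjusted p = 0.803), and CM-Het minus Het was -0.10 (SE 0.16, interval -0.45 to 0.25, adjusted p = 0.999). The intervals leave room for a change of the order of the lower bound in each case. CM-CKO minus Control was -1.07 (SE 0.14), 2.10-fold, with -1.04 from the CM-CKO arrays of beadchip 2 and -1.09 from those of beadchip 3.

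The other Col23a1 probe also placed CM-CKO heads lowest. Probe ILMN_1241768, above background on all 14 arrays, read 5.77, 6.10, 6.03 and 6.14 in CM-CKO heads, 6.99, 7.24 and 6.84 in CM-Het heads, 6.73, 6.82 and 7.08 in Het heads, and 7.30, 7.37, 6.60 and 7.10 in Control heads. No CM-CKO array reached the lowest of the others, Control 3. CM-CKO minus CM-Het was -1.01 (SE 0.17, adjusted p = 0.0197 over all detected probes, of which 0.122% were called), CM-CKO minus Het -0.87 (SE 0.17, adjusted p = 0.0539, not called, 0.145% of probes called) and CM-CKO minus Control -1.08 (SE 0.16). The 2 probes correlated at r = 0.97 over 14 arrays and at 0.88 within genotypes, and Control 3 was the lowest Control array for both.

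**Figure D2:**
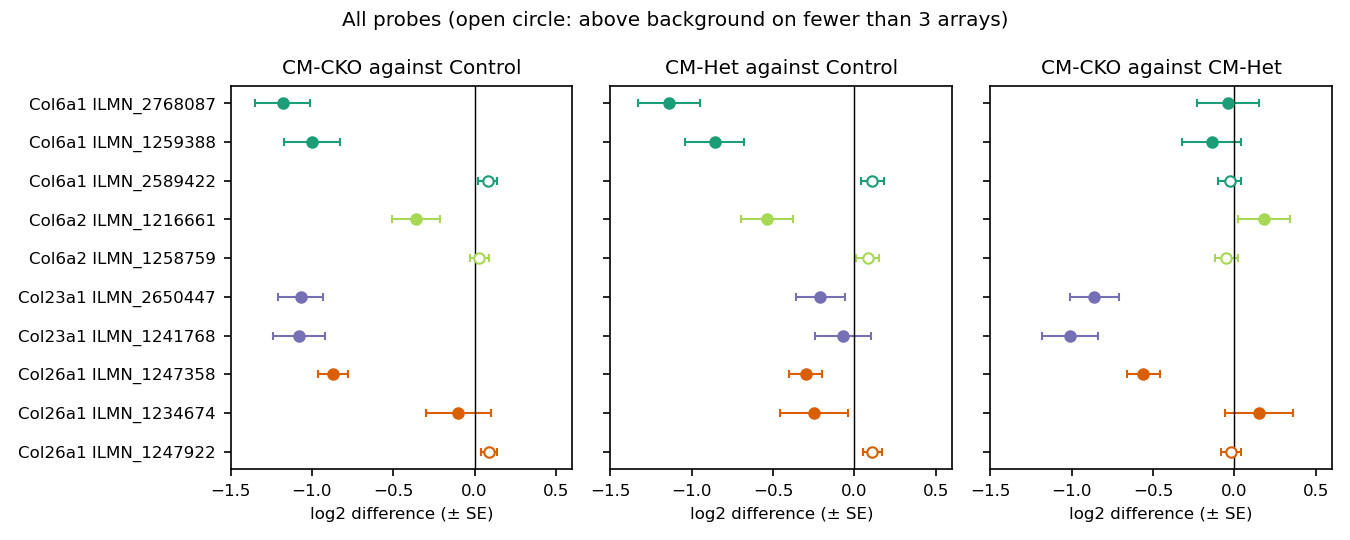
Log2 differences (x axis, with SE) of all 10 probes of the 4 genes in CM-CKO against Control, CM-Het against Control and CM-CKO against CM-Het; open circles are probes above background on fewer than 3 arrays. Both detected probes of Col6a1 and both of Col23a1 lie below 0 in CM-CKO against Control, those of Col23a1 at -1.07 and -1.08, while those of Col26a1 lie at -0.87 and -0.10.

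Col26a1, the gene of the EMI-domain collagen XXVI, was also lowest in CM-CKO heads by its brightest probe. Probe ILMN_1247358, above background on 14 arrays, read 9.08, 8.73, 9.01 and 8.92 in CM-CKO heads, 9.48, 9.54 and 9.48 in CM-Het heads, 9.58, 9.71 and 9.33 in Het heads, and 9.79, 9.68, 9.81 and 9.92 in Control heads. CM-CKO arrays lay below all others, and the CM-Het arrays also lay below the Control arrays, while Het overlapped both. Means were 8.94 ± 0.15 in CM-CKO heads, 9.50 ± 0.03 in CM-Het heads, 9.54 ± 0.19 in Het heads and 9.80 ± 0.10 in Control heads. Unprocessed intensities were 428.5 to 715.0 in CM-CKO heads, 865.3 to 886.3 in CM-Het heads, 731.4 to 1037 in Het heads and 764.0 to 1159.5 in Control heads.

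By this probe Col26a1 fell in CM-CKO heads against Het heads by 0.60 (SE 0.10, 95% interval of the difference -0.81 to -0.40), 1.52-fold, with limma adjusted p = 0.0065. Against CM-Het heads it fell by 0.56 (SE 0.10, interval -0.77 to -0.36), 1.48-fold, with adjusted p = 0.0151. The call against Het was lost without Het 1 (adjusted p = 0.0613) or Het 2 (0.0877), and that against CM-Het was lost without any one of CM-Het 1 (0.0752), CM-Het 2 (0.0936) and CM-Het 3 (0.0843). With the 3 arrays lacking Xist removed, the differences were -0.74 (adjusted p = 0.0221) and -0.59 (0.072). With CM-CKO arrays from beadchip 2 only, the adjusted p was 0.0699 against Het and 0.101 against CM-Het, and from beadchip 3 only it was 0.0495 and 0.124. CM-CKO minus Control was -0.87 (SE 0.09), 1.82-fold, with -0.90 and -0.84 from the CM-CKO arrays of beadchips 2 and 3.

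In heads with a single change, Col26a1 differences from Control were smaller and not called. CM-Het minus Control was -0.30 (SE 0.10, 95% interval -0.50 to -0.10, adjusted p = 0.155), with arrays that did not overlap, as for 7.57% of all genes in that direction. Het minus Control was -0.26 (SE 0.10, adjusted p = 0.274). CM-Het minus Het was -0.04 (SE 0.10, interval -0.26 to 0.18, adjusted p = 0.999).

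The other probes of Col26a1 did not show this. Probe ILMN_1234674, annotated to a cDNA clone and above background on 12 arrays, read 5.54, 5.28, 5.00 and 4.57 in CM-CKO heads, 4.70, 5.05 and 5.08 in CM-Het heads, 4.85, 5.20 and 5.28 in Het heads, and 5.37, 4.94, 5.09 and 5.37 in Control heads. All genotypes overlapped, and the single highest and lowest arrays were both CM-CKO. Its difference was -0.10 (SE 0.20) for CM-CKO against Control, -0.01 against Het (adjusted p = 0.996) and 0.15 against CM-Het (adjusted p = 0.829), and it correlated with the brightest probe at r = 0.13 over 14 arrays. The third probe (ILMN_1247922, also annotated to a cDNA clone) was above background on 0 arrays. The low Col26a1 signal in CM-CKO heads therefore rests on 1 probe.

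**Figure D3:**
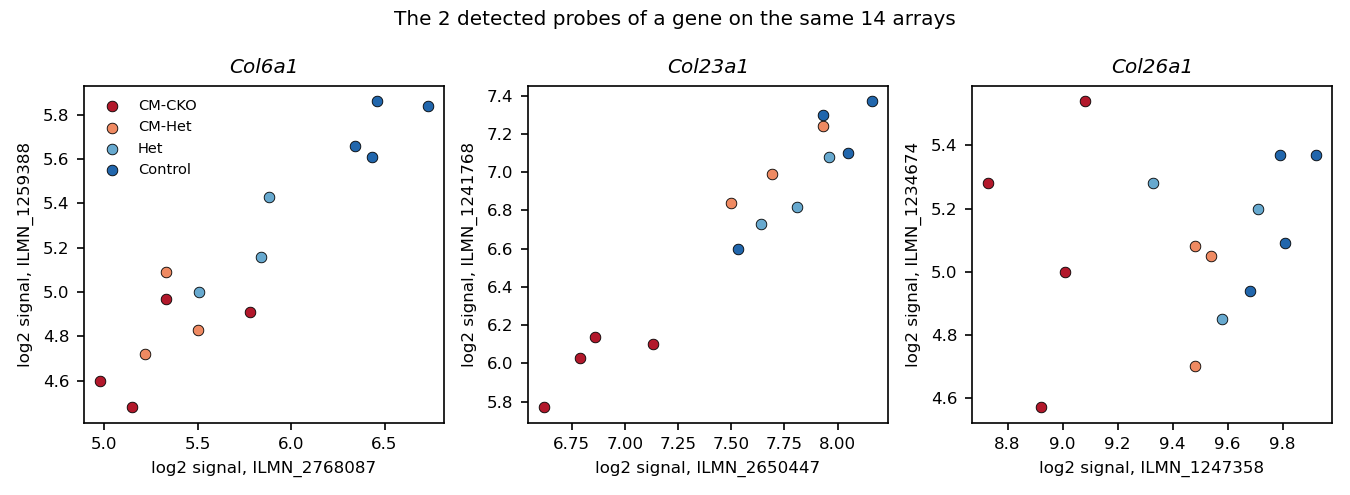
Log2 signal of the brightest probe (x axis) against the other detected probe (y axis) of Col6a1, Col23a1 and Col26a1 on the 14 arrays, coloured by genotype. The pairs of Col6a1 (r = 0.94) and Col23a1 (r = 0.97) lie along a line, and that of Col26a1 (r = 0.13) does not.

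Set side by side, the brightest probes of Col6a1, Col23a1 and Col26a1 had means in the same order, with steps of different size. From low to high this order was CM-CKO, CM-Het, Het and Control. The CM-Het to Het steps of Col23a1 (0.10, pooled SD 0.19) and Col26a1 (0.04, pooled SD 0.14) lay within the spread. The other detected probe of Col6a1 kept the order, that of Col23a1 placed Het below CM-Het, and that of Col26a1 placed CM-Het below CM-CKO. For Col6a1 CM-CKO and CM-Het were 0.04 apart, and for Col23a1 and Col26a1 CM-CKO lay 0.86 and 0.56 below CM-Het. The interaction, which asks whether the Cre difference (CM-CKO minus Het, less CM-Het minus Control) depends on the second Twist1 allele, was positive for Col6a1 (0.71, SE 0.24, 95% interval 0.20 to 1.22). For Col6a2 it was 0.63 (SE 0.24), a value that has no firm size because CM-Het was above background on 0 of 3 arrays and Het on 1 of 3. It was negative for Col23a1 (-0.74, SE 0.22, interval -1.20 to -0.28) and Col26a1 (-0.30, SE 0.14, interval -0.59 to -0.02). None of the 4 passed the limma test (adjusted p = 0.165 for Col6a1, 0.21 for Col6a2, 0.11 for Col23a1 and 0.293 for Col26a1), although all 4 had an unadjusted p under 0.05, against 1% of all genes called and 15.8% at an unadjusted p under 0.05. A shift of beadchip 1 enters the interaction through both Het and CM-Het, so with a weight of 2, and its part was not tested, and the difference in sign between the genes was itself not tested. With the beadchip as a random block Col6a1 (0.72, adjusted p = 0.0436) and Col23a1 (-0.74, adjusted p = 0.0251) were called, but so were 714 genes in all (6.27%, against 114 without the block). That block cannot remove a shift of beadchip 1 from the interaction, since beadchip 1 shares no genotype with the others.

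**Figure D4:**
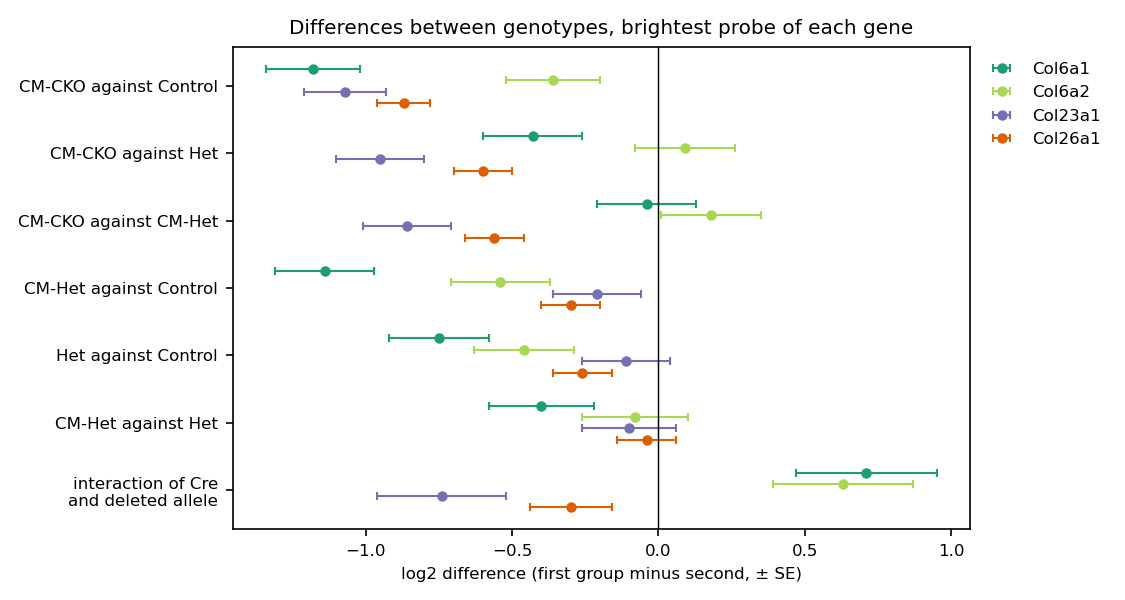
Log2 differences (with SE) of the brightest probe of the 4 genes in 7 comparisons; CM-CKO against Control is the one behind the choice of genes. Col23a1 and Col26a1 lie below 0 in all comparisons with CM-CKO, whereas Col6a1 is at -0.04 in CM-CKO against CM-Het and at -1.14 in CM-Het against Control.

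Averages over the other factor, in which a shift between beadchips 1 and 2 cancels, divided the CM-CKO minus Control difference into a Cre part and a deleted-allele part, which sum to it and so carry no test. For Col6a1 the Cre part was -0.79 (SE 0.12) and the deleted-allele part -0.39 (SE 0.12). For Col23a1 they were -0.58 and -0.49 (SE 0.11 each), for Col26a1 -0.45 and -0.41 (SE 0.07 each), and for Col6a2 -0.22 and -0.14 (SE 0.12 each). By their definition the parts of a gene differ by CM-Het minus Het, so their inequality restates that comparison and adds no result. CM-Het minus Het was -0.40 for Col6a1, -0.08 for Col6a2, -0.10 for Col23a1 and -0.04 for Col26a1 (limma adjusted p = 0.999 for each).

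Over the 14 arrays Col23a1 and Col26a1 correlated at r = 0.80, Col6a1 with Col26a1 at 0.66, with Col23a1 at 0.64 and with Col6a2 at 0.62. With genotype means removed these became -0.47, -0.45, 0.36 and 0.07. Col6a2 correlated with Col23a1 at 0.30 and with Col26a1 at 0.31, and within genotypes at 0.40 and -0.07. The sign within genotypes thus differed between the pairs of genes. With Twist1 the correlation was 0.93 for Col26a1, 0.83 for Col23a1, 0.79 for Col6a1 and 0.42 for Col6a2, and within genotypes 0.20, -0.10, 0.18 and 0.01. All of these describe 14 arrays whose values share RNA, hybridisation and genotype.

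The 5 genes with the most similar pattern over the arrays differed by collagen. For Col6a1 they were the endolysosomal channel Tpcn1 (r = 0.92, 0.69 within genotypes), the mitochondrial subunits Atp5d (0.90, 0.92) and Uqcrc1 (0.88, 0.78), the exchange factor Arfgef2 (0.88, 0.58) and the secreted serpin Serpinf1 (0.87, 0.01). Serpinf1 averaged 7.20 in CM-CKO heads, 7.35 in CM-Het heads, 7.67 in Het heads and 8.23 in Control heads, the order of Col6a1, while Atp5d varied only between means of 10.95 and 11.17.

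For Col23a1 they were the mesenchymal surface protein Cd248 (0.93, 0.39), the adhesion protein Tgfbi (0.90, -0.06), Ppp1r14a (0.89, 0.81), the procollagen processing enhancer Pcolce (0.89, 0.45) and the transporter Abca9 (0.89, 0.68). Cd248 averaged 6.20 in CM-CKO heads, 7.34 in CM-Het heads, 7.57 in Het heads and 7.82 in Control heads, so CM-CKO stood apart there too. For Col26a1 they were Pdlim4 (0.95, 0.67), the transcription factor Snai2 (0.94, 0.29), Tmem119 (0.93, 0.80), the growth factor Vegfc (0.93, 0.57) and Twist1 (0.93, 0.20). Snai2 averaged 6.43 in CM-CKO heads, 7.32 in CM-Het heads, 7.45 in Het heads and 7.71 in Control heads. For Col6a2, near background, the highest were Snd1 (0.87), Eif2b2 (0.86), Fzd8, Tars2 and Cnot10 (0.85 each). The 99th percentile of r over all tested genes was 0.74 for Col6a1, 0.70 for Col6a2, 0.70 for Col23a1 and 0.68 for Col26a1.

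A small number of genes of the surrounding collagen machinery passed the test. Of 92 listed genes other than the collagens above, 60 were tested. In CM-CKO against Control 3 fell (5% of those tested, where 0.518% of all genes fell) and 0 rose. A difference below 0 was seen for 43 of the 60, where the median over all genes was 0. Against Het heads 3 fell (5%, where 0.176% of all genes fell), against CM-Het heads 2 fell (3.33%, against 0.14% of all genes), and 0 rose in both. In CM-Het against Control 2 fell (3.33%, against 0.228% of all genes), and in Het against Control and CM-Het against Het 0 passed. The interaction was called negative for 2 and positive for 1 of the 60, where 1% of all genes were called in either direction. The lists were drawn up with results of these data known, so their counts are a description.

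**Figure D5:**
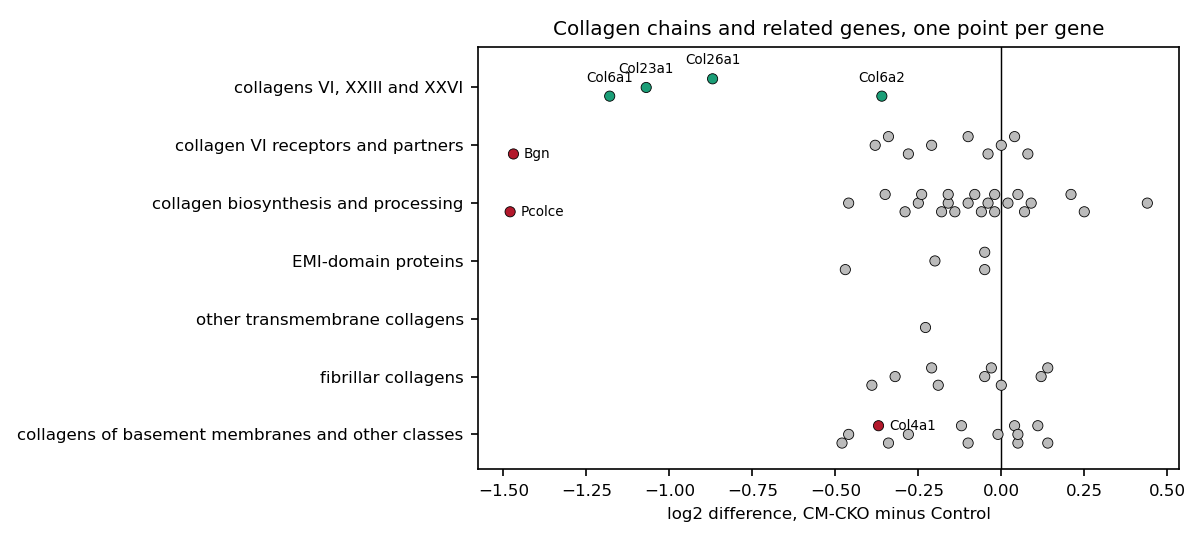
Log2 difference in CM-CKO minus Control (x axis) of the collagen genes (green, 4 tested) and of 60 tested genes of the lists named in the text; red marks the 3 called genes, Bgn, Pcolce and Col4a1. The list medians ran from -0.23, in a list with 1 tested gene, to -0.05.

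Among 10 tested receptors and partners of collagen VI, 8 lay below 0 in CM-CKO against Control with a median of -0.16, against 0.00 over all genes, and Bgn fell. Bgn encodes biglycan, a proteoglycan that binds collagen VI. It averaged 6.90 in CM-CKO heads, 8.38 in CM-Het heads, 8.68 in Het heads and 8.36 in Control heads. It differed by -1.47 from Control (limma adjusted p = 3.25e-05), by -1.78 from Het (1.77e-05) and by -1.48 from CM-Het (0.000251), and CM-Het minus Control was 0.02, so CM-CKO alone was low, as for Col23a1. Itgb1, the integrin beta chain of collagen receptors, differed by -0.28 (adjusted p = 0.528). The 3 further collagen VI chains on the array, Col6a4, Col6a5 and Col6a6, were above background on too few arrays to be tested.

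Among 23 tested genes of collagen biosynthesis and processing, Pcolce fell in CM-CKO against Control (-1.48, adjusted p = 7.8e-06), with a list median of -0.08. It enhances removal of the procollagen C-terminal propeptide. Its means were 4.79 in CM-CKO heads, 5.53 in CM-Het heads, 5.87 in Het heads and 6.26 in Control heads, and CM-Het minus Control was called as well (-0.74, adjusted p = 0.0456). P4ha2, a prolyl hydroxylase subunit, fell in CM-CKO against Het (-0.67, adjusted p = 0.00682) and against CM-Het (-0.58, adjusted p = 0.0293), with -0.29 against Control (adjusted p = 0.257). P4ha2 averaged 8.36 in CM-CKO heads, 8.95 in CM-Het heads, 9.03 in Het heads and 8.66 in Control heads, and its interaction was -0.96 (adjusted p = 0.0101). Both groups of beadchip 1 were the highest, and a shift of that beadchip enters this interaction, where its part was not tested. The interactions of Col23a1 and Col26a1 were also negative but not called. Furin, the protease that sheds collagen XXIII, differed by -0.16 in CM-CKO against Control (adjusted p = 0.519).

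Of 4 tested EMI-domain proteins, the relatives of collagen XXVI, 0 passed in CM-CKO against Control, where the nearest were Emilin1 (-0.47, adjusted p = 0.226) and Emilin2 (-0.20, adjusted p = 0.734). Emid1, another EMI-domain protein, had an interaction of 0.98 (adjusted p = 0.0393) and a CM-CKO minus Control difference of -0.05. Its means were 5.79 in CM-CKO heads, 5.34 in CM-Het heads, 5.32 in Het heads and 5.84 in Control heads. Both groups of beadchip 1 were thus the lower ones, and a shift of that beadchip enters this interaction, where its part was not tested. Col25a1, the 1 other transmembrane collagen tested, differed by -0.23 (adjusted p = 0.535).

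Of 9 tested fibrillar collagens 0 passed, with a median of -0.05 and the smallest p-values for Col5a1 (-0.39, adjusted p = 0.151) and Col1a1 (-0.32, adjusted p = 0.409). Of 13 tested collagens of basement membranes and other classes Col4a1, a main chain of basement membrane collagen, fell in CM-CKO against Control (-0.37, adjusted p = 0.0438), with a list median of -0.10. Col16a1, a collagen associated with fibrils, fell in CM-Het against Control (-0.60, adjusted p = 0.0475) and differed by -0.46 in CM-CKO against Control (adjusted p = 0.0966).

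Markers of cell types moved with some of these differences, and their part in them was not tested. The mean log2 signal of 7 tested head mesenchyme genes, all 7 lower in CM-CKO than in Control heads, ran from 6.16 to 6.33 in CM-CKO heads, 6.55 to 6.63 in CM-Het heads, 6.58 to 6.63 in Het heads and 6.82 to 7.16 in Control heads, so CM-CKO arrays were lowest and did not overlap the rest. That of 8 endothelial genes, 7 of them lower in CM-CKO heads, ran from 6.64 to 6.80, 6.77 to 6.88, 6.92 to 7.03 and 6.96 to 7.21 in the same order of genotypes. Heart muscle genes (6 tested, all lower in CM-CKO) ran from 7.30 to 9.27 in CM-CKO heads and 7.75 to 10.08 in Control heads, overlapping widely. Primitive erythroid genes (4 tested, 0 lower in CM-CKO) ran from 5.62 to 10.22 in CM-CKO heads and 5.70 to 6.77 in Control heads. Yolk sac endoderm genes (6 tested, all lower in CM-CKO) ran from 4.81 to 5.96 in CM-CKO heads and 5.39 to 7.80 in Control heads.

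Other tissues of the head overlapped between CM-CKO and Control heads in their mean marker signal. Neural crest genes (4 tested) ran from 8.79 to 9.51 in CM-CKO heads, 8.52 to 9.05 in CM-Het heads, 8.70 to 9.63 in Het heads and 8.82 to 9.44 in Control heads. Neural tube genes (4 tested) ran from 7.94 to 8.09 in CM-CKO heads, 7.83 to 7.98 in CM-Het heads, 7.85 to 8.05 in Het heads and 7.92 to 8.12 in Control heads. Surface ectoderm, gut endoderm and somite genes overlapped between CM-CKO and Control heads as well (3, 4 and 3 tested). Of 4 myeloid markers Csf1r was the 1 tested, since Ptprc, Spi1 and Tyrobp were above background on too few arrays, and the 2 notochord markers gave no test.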

How the data were processed

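Each array has a column of signal intensity deposited by the authors, linear and with no normalisation or background subtraction, beside a detection p-value, per the file headers. A deposited table of processed log2 values equalled the quantile-normalised log2 intensity to within 0.0329. The scanner software is not given in the sources used here. Deposited detection p-values did not follow the intensities on their rows (rank correlation -0.105 to -0.0946), so they were put back by rank within each array, and 45261 of 45281 restored rows occur in the deposit.

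Intensities were corrected and quantile-normalised with neqc (offset 16) of limma 3.58.1 in R 4.3.3. A probe counted as above background with detection p below 0.05 in 3 arrays or more. Of the probes, 34885 have 1 gene symbol in the platform annotation, 18 several and 10378 none, and 34852 match RefSeq (GRCm38.p6). Of 17991 detected named probes the brightest per gene was kept, giving 11394 genes. Genotype means were fitted over all arrays (lmFit, eBayes with a trend) with Benjamini-Hochberg adjustment over all genes, called under 0.05, and over all detected named probes where probes were compared. The fit was tested on simulated data. The number of arrays limits the precision.

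Genes, lists and tests were chosen with earlier results of these data known. The text names every probe of the 5 genes, the 5 genes most correlated with each, the called genes of each list or else its 2 of smallest p, and Twist1, and Itgb1 and Furin were named after their values were seen. Alternatives were the deposited table, offset 50, 3 other filters on dim probes, every detected probe, the beadchip as a block or in subsets, arrays without Xist left out, each array left out and the replicate number as a block. Same-numbered arrays did not deviate together (19 pairs, correlation -0.24 to 0.25).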

Additional observations from a re-analysis of the deposited data

How the results depend on the processing

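Of 677 recomputed differences of the 4 genes, 634 kept their direction and their side of the threshold. Of the rest, 28 lost the call at the same sign, 3 gained it and 12 changed sign. The 12 include Col26a1 in CM-CKO against CM-Het with detection p-values in their deposited order, which also lost its call. Col6a1 was not tested in that setting, so its calls lost there are not among the 677. Most of the 634 were differences not called to begin with, so this count does not measure how stable the calls were. The 28 losses could come only from the few differences called in the main fit. With detection p-values in their deposited order the filter dropped Col6a1 and kept the cDNA-clone probe of Col26a1, so the number of the 4 genes called became 1 in CM-CKO against Control, 1 against Het and 1 against CM-Het, and 0 in CM-Het against Control, against 3, 2, 2 and 1 as reported, of which the first was fixed by the choice of genes. Col26a1 then read 0.15 in CM-CKO against CM-Het and 0.23 in the interaction. With the beadchip as a random block (consensus correlation -0.0585) 1 gene was called in Het against Control and 2 in the interaction. In neither can that block remove a shift of beadchip 1. Taking CM-CKO arrays from beadchip 2 only, 0 were called against Het and 0 against CM-Het, and with those of beadchip 3 alone 0 against CM-Het. Without the arrays that lack Xist signal 1 was called against Het and 0 against CM-Het. Col6a1 in CM-CKO against CM-Het read 0.03 with beadchip 2 alone and 0.03 without the Xist-lacking arrays, settings that keep the same CM-CKO arrays. Col6a2 in CM-CKO against Het read -0.03 without the Xist-lacking arrays. The cause of these changes was not tested, and the settings that leave out arrays also rest on fewer of them. With the replicate number as a block 1 gene was called in CM-CKO against CM-Het, Col23a1 (-0.88, adjusted p = 0.0264), while Col26a1 lost its call (-0.58, adjusted p = 0.055), and no other call of the 4 genes changed. A fixed beadchip block could be fitted only for CM-CKO against Control and CM-Het against Het, since beadchip 1 shares no genotype with the others.

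Leaving out each array in turn, the genes called ranged from 0 to 2 in CM-CKO against Het, 0 to 2 against CM-Het, 0 to 1 in CM-Het against Control, and were 0 in Het against Control, CM-Het against Het and the interaction. Differences that changed sign ranged from -0.20 to 0.07 (Col6a1, CM-CKO against CM-Het), and in CM-Het against Het from -0.18 to 0.06 (Col6a2), -0.21 to 0.01 (Col23a1) and -0.14 to 0.04 (Col26a1). Over all genes, calls in CM-CKO against Control ranged from 53 to 78 of 11394, against Het from 13 to 26, against CM-Het from 10 to 30, in CM-Het against Control from 0 to 59, in Het against Control from 0 to 5 and in the interaction from 22 to 96. Counts over all genes that moved by more than 1.5 times under the other alternatives, against 80 in CM-CKO against Control, 25 against Het, 24 against CM-Het, 47 in CM-Het against Control, 0 in Het against Control and 114 in the interaction, were these. The filter with deposited detection order gave 37, 16 and 11 in the first 3 comparisons, and no filter gave 20 in CM-Het against Control. Testing every probe gave 78 in CM-Het against Control, 4 in Het against Control and 197 in the interaction. The random beadchip block gave 40 against Het, 53 against CM-Het, 277 in CM-Het against Control, 83 in Het against Control and 714 in the interaction, and the fixed block gave 27 in CM-CKO against Control. CM-CKO arrays from beadchip 2 only gave 29, 13 and 7 in the first 3 comparisons, and from beadchip 3 only 49, 16 and 9, with 13 in the interaction. Without the Xist-lacking arrays these were 28, 13 and 5, with 8 in CM-Het against Control and 28 in the interaction. The replicate block gave 14 against CM-Het, 11 in CM-Het against Control and 20 in the interaction. Col6a1, Col6a2 and the dimmer probes lie near background, where the signal limits the size of a fold.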
